A study of Mus musculus with 16 samples.

Results

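The 42 genes described here encode proteins that copy chromosomes or divide them, and were read in whole mouse lung with and without the very low density lipoprotein receptor, Vldlr, after house dust mite (HDM) or saline. They were chosen by name: 11 act in DNA replication (Mcm2 to Mcm7, Rrm1, Rrm2, Tyms, Pcna and Cdc6) and 31 act mainly in mitosis. Each gene was read from a probe set annotated with its symbol alone and, where it had more than 1, from the brightest on average over 16 arrays. All 42 were measured, out of 19938 genes with such a probe set.

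A cell that enters the cycle first turns on the genes for copying DNA. E2F transcription factors switch these on, and their products load the Mcm helicase at origins and supply deoxynucleotides. Later, in G2 and M phases, the factors B-Myb and FoxM1 govern a set of genes for mitotic kinases, the spindle, the kinetochore and cytokinesis. In resting cells the DREAM complex represses them. Most cells of the adult lung are at rest, and how much of the RNA of these genes came from cells that cycle was not tested.

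The study crossed genotype with allergen in 16 mouse lung samples, 4 in each of 4 groups: wild-type (WT) mice of strain B6129SF2/J given saline, WT mice given HDM, Vldlr-/- (KO) mice given saline and KO mice given HDM. HDM (25 µg) or saline was given through the nose in 10 µl, 5 days a week for 6 weeks. Total lung RNA (50 ng) was amplified, labelled and hybridised to Affymetrix whole-transcript arrays, 1 array a sample. The labels call the samples biological replicates without saying how many animals gave each RNA, so p-values cover only the scatter among these 16 samples, which may be technical. They give no strain for the KO mice and no age or sex for any group, so the deletion and a difference in strain background cannot be told apart.

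Levels are log2 values of the deposited table, and a difference of 1 is a doubling. Array medians lay between 8.78 and 8.85, and arrays correlated at r = 0.9798 to 0.9954. Vldlr lay between 9.40 and 9.91 on the 8 KO arrays and between 10.27 and 10.92 on the 8 WT arrays. The tissue label was checked with 10 genes of alveolar type 2 cells, whose mean level was 12.64 to 12.98 on every array, and 10 endothelial genes, at 11.54 to 12.03. Members ranged in mean level from 7.36 (Ttk) to 11.87 (Pcna). All 11 replication genes and 27 of 31 mitotic genes lay above the 25th percentile of all genes, while Kif4, Ttk, Cenpe and Melk lay below it.

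The promoters of the 2 classes were searched for 3 motifs, and no test of a difference between the classes was run. Windows from 250 bases before to 50 after the start were taken from RefSeq (GRCm38.p6), which held one for 37 of the 42 members. An E2F motif (the letters TTGGCGC or TTCCCGC, on either strand) stood in 6 of 10 replication promoters (60.0%, exact 95% interval 26.2% to 87.8%) and 3 of 27 mitotic ones (11.1%, 2.35% to 29.2%), against 7.79% of all 27025 genes. The CHR element (TTTGAA, either strand), which the DREAM and B-Myb complexes bind, stood in 1 of 10 replication promoters and 20 of 27 mitotic ones (74.1%, 53.7% to 88.9%), against 20.2% of all genes. A CCAAT box (CCAAT, either strand) was found in 8 of 10 and 19 of 27 (70.4%), against 41.1%. These matches describe letters in a window, not bound sites, and the intervals cover counting error only.

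Of the replication genes, Cdc6 (chr11:98907901-98908200, plus strand), Mcm6 (chr1:128359656-128359955, minus strand) and Rrm1 (chr7:102441445-102441744, plus strand) are shown because each passed the test between genotypes under HDM and holds an E2F motif. Capitals mark every match to the 3 motifs, read 5′ to 3′ along the gene's strand.
Cdc6: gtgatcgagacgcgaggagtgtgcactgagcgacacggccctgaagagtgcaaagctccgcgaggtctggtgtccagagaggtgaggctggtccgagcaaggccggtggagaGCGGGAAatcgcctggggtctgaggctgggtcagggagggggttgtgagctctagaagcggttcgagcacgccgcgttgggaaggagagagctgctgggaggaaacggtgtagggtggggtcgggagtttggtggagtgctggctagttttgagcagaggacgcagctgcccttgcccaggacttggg
Mcm6: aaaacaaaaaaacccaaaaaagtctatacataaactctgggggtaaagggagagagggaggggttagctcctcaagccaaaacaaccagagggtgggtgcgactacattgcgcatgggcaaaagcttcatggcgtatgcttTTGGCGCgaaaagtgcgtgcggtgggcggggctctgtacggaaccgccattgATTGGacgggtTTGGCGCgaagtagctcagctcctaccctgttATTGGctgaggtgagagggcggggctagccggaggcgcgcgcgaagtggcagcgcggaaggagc
Rrm1: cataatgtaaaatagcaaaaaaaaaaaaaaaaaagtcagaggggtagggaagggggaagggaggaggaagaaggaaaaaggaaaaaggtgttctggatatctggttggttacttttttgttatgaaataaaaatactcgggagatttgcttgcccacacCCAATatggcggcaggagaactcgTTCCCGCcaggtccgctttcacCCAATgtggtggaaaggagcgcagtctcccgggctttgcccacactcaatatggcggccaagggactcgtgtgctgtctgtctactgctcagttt
Cdc6 holds 1 E2F match, at -138 to -132 from the start, which reads GCGGGAA along the gene's strand and TTCCCGC on the opposite strand. Mcm6 holds 2 E2F matches, at -109 to -103 and -46 to -40, with a CCAAT match in reverse, ATTGG, between them at -57 to -53. In Rrm1 the E2F match at -67 to -61 lies between CCAAT matches at -91 to -87 and -45 to -41.

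Of the mitotic genes, Cdk1 (chr10:69352863-69353162, minus strand), Top2a (chr11:99024140-99024439, minus strand), Kif11 (chr19:37376132-37376431, plus strand) and Bub1b (chr2:118597961-118598260, plus strand) are shown as genes with a CHR match that passed the same test.
Cdk1: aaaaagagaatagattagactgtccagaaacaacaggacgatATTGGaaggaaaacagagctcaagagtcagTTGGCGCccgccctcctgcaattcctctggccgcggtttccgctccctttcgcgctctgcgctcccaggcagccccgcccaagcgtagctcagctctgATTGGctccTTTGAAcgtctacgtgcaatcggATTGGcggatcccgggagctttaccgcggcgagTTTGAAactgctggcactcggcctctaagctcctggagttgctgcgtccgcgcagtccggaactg
Top2a: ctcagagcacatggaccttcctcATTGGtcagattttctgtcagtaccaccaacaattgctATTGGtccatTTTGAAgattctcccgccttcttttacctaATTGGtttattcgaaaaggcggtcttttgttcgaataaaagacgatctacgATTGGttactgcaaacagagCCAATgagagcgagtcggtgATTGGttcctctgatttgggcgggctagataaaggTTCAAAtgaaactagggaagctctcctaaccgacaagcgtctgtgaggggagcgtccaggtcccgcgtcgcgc
Kif11: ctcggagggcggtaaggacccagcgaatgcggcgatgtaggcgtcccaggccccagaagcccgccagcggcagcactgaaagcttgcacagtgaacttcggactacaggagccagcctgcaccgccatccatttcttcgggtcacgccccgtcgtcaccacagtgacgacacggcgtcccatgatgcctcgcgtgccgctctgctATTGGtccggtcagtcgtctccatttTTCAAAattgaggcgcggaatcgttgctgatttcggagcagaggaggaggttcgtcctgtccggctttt
Bub1b: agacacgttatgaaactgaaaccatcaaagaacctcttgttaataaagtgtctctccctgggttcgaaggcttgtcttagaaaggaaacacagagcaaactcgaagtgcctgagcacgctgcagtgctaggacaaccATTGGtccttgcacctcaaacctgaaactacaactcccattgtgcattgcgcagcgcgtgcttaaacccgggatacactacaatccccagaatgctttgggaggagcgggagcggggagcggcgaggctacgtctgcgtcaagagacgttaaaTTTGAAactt
Cdk1 is a mitotic gene with all 3 kinds of match, the E2F letters at -178 to -172 and the CHR letters at -71 to -66 and -15 to -10. Top2a holds 6 CCAAT matches and 2 CHR matches, the nearer at -23 to -18. Kif11 has its CHR match at -19 to -14 and a CCAAT match at -45 to -41, and the CHR letters of Bub1b lie after the start, at 41 to 46. Within each class, members with and without the motif had like differences between genotypes under HDM: the median was 0.41 for the 20 mitotic genes with the CHR letters and 0.42 for the 7 without, and 0.42 for the 6 replication genes with the E2F letters and 0.38 for the 4 without. These medians are given as a description.

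Both classes moved together from array to array. A score for each class was the mean over its members of the level minus that gene's mean over 16 arrays. The replication score averaged -0.07 ± 0.05 in WT saline, -0.19 ± 0.08 in WT HDM, 0.04 ± 0.16 in KO saline and 0.21 ± 0.23 in KO HDM (SD, n = 4). The mitotic score averaged -0.08 ± 0.13, -0.25 ± 0.19, 0.09 ± 0.22 and 0.24 ± 0.33 in the same order. WT HDM was therefore the lowest group for both classes and KO HDM the highest, with wide spread within both KO groups. The ranges of the 4 arrays overlapped between neighbours in that order, although the mean of WT HDM lay below every WT saline array for both scores. In bulk lung, fewer cycling cells and less of this RNA in each such cell cannot be told apart.

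Single arrays carried much of the spread. The replication score was 0.39, 0.22 and 0.36 on KO HDM 1, 2 and 3 and -0.11 on KO HDM 4. The mitotic score was 0.65, 0.15 and 0.29 on the first 3 of these arrays and -0.15 on the fourth. KO HDM 4 thus lay inside the range of the WT HDM arrays for both scores, which was -0.30 to -0.10 for replication and -0.50 to -0.06 for mitosis. Gene by gene, KO HDM 4 was the lowest KO HDM array for 42 of 42 members. Its Vldlr level, 9.91, stood at the top of the range of the KO arrays and below every WT array. KO HDM 1 was the highest of its group for 31 of 31 mitotic genes and 5 of 11 replication genes. In WT HDM, array 2 was the lowest for 29 of 31 mitotic and 5 of 11 replication genes. KO saline 2 was the lowest of the KO saline arrays for 29 of 31 and 9 of 11.

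**Figure D1:**
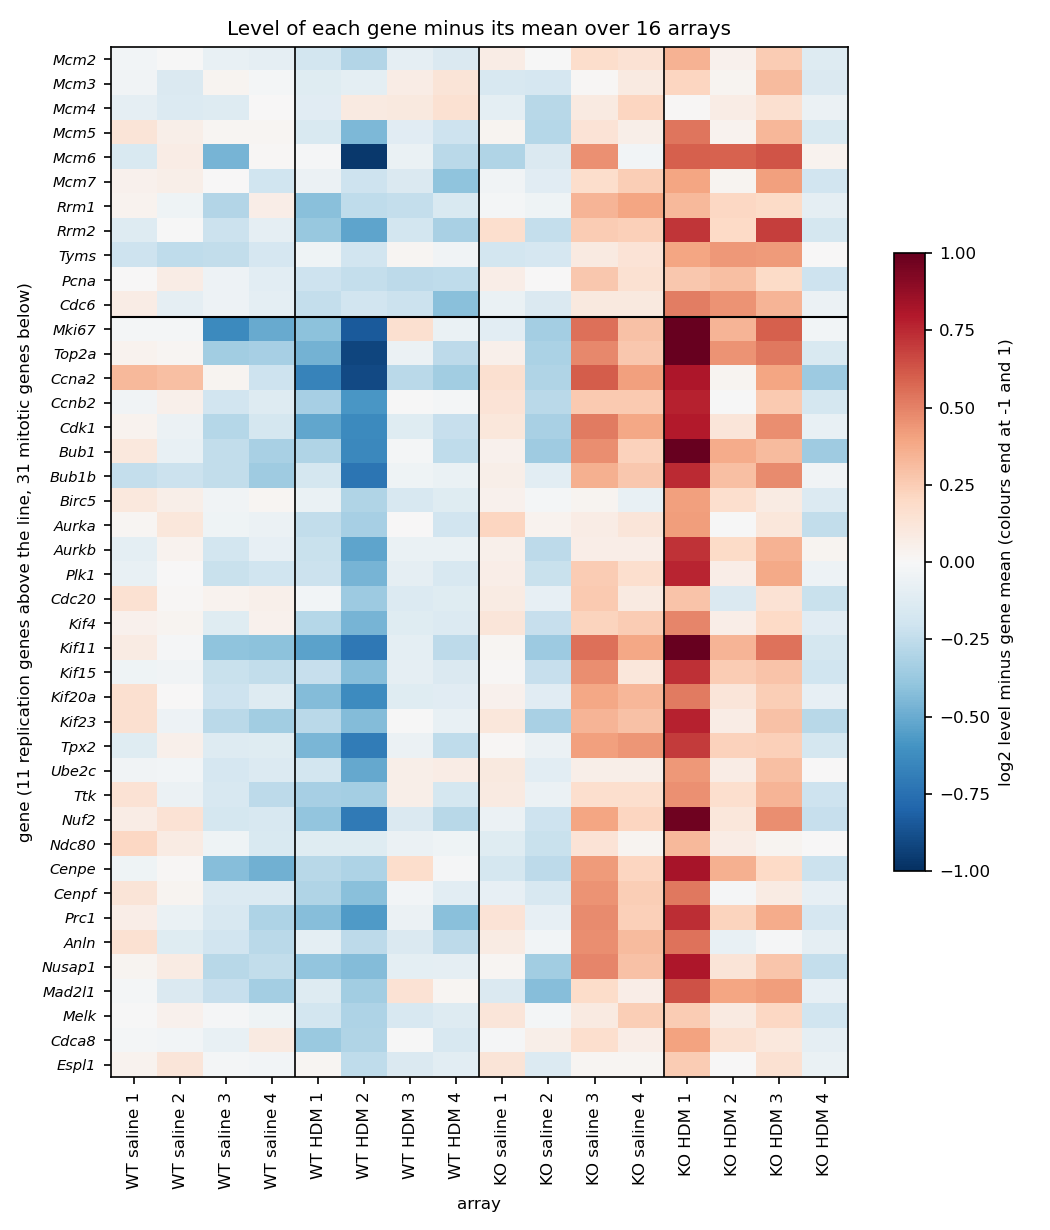
Heat map of the 42 genes (vertical axis; replication genes above the line) on 16 arrays (horizontal axis, by group), coloured by log2 level minus the gene's mean over all arrays. Most columns are of 1 colour from top to bottom; KO HDM 1 is red and WT HDM 2 blue throughout most genes, and KO HDM 4 is pale or blue beside the other 3 KO HDM arrays.

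The score of replication minus mitotic genes asks whether the classes parted. It averaged 0.02 ± 0.10 in WT saline, 0.06 ± 0.12 in WT HDM, -0.06 ± 0.08 in KO saline and -0.02 ± 0.16 in KO HDM (SD, n = 4), so the 4 groups overlapped. The lowest value was -0.26 on KO HDM 1, where mitotic genes stood further above their mean than replication genes, while KO HDM 2, 3 and 4 lay between 0.04 and 0.07. The highest was 0.20 on WT HDM 2, where mitotic genes stood further below their mean. Across the 16 arrays the 2 scores had a Pearson r of 0.94 and a Spearman rho of 0.93, with r = 0.91 without WT HDM 2 and KO HDM 1 and r = 0.90 once group means were removed. These are descriptions over arrays that both scores share. Mitotic genes swung further: the range of a gene over the 16 arrays had a median of 1.203 among mitotic genes (0.51 to 1.95) and 0.82 among replication genes (0.49 to 1.59).

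**Figure D2:**
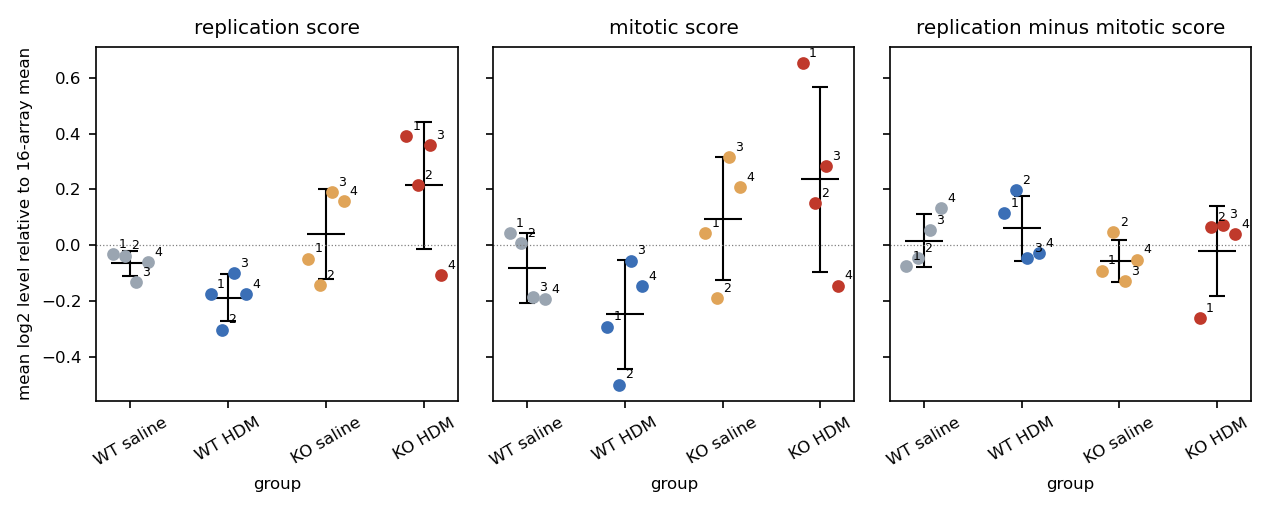
Replication score, mitotic score and their difference (vertical axis, mean log2 level relative to the 16-array mean) for each array, numbered by replicate, in 4 groups (horizontal axis); long bars are group means and whiskers 1 SD over 4 arrays. In the first 2 panels KO HDM spans from -0.11 to 0.39 and from -0.15 to 0.65, and in the third all groups straddle or touch 0.

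Cohesion within a class was not even. The correlation of a mitotic gene with the mean of the other mitotic genes had a median of 0.93 over 16 arrays and was lowest at 0.765. Among replication genes the median was 0.84, and the lowest was 0.34. These are descriptions over arrays that share the same groups.

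The comparison of KO with WT lungs under HDM asks how the loss of Vldlr bears on these genes in allergen-challenged lung. Of the 42 members, 24 were higher in KO lungs at an adjusted p under 0.05 in limma, 8 of 11 replication genes and 16 of 31 mitotic genes, and none was lower. Over all 19938 genes 11.7% passed, 5.84% higher. The median difference was 0.42 on the log2 scale over the members (0.38 for replication and 0.45 for mitotic genes), against 0.02 over all genes, and 41 of 42 were above 0. At an unadjusted p under 0.05, 38 were higher, against 13.8% of all genes. For 13 members all 4 KO HDM arrays lay above all 4 WT HDM arrays, against 5.74% of all genes.

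That count depended on single arrays. It was 3 without KO HDM 1 (Cdc6, Rrm2 and Aurkb), 7 without KO HDM 3, 5 without WT HDM 2, 16 without KO HDM 2 and 36 without KO HDM 4. Over all genes, 495 were higher without KO HDM 1 and 1997 without KO HDM 4, against 1164 with all arrays. Without KO HDM 3, WT HDM 2 or KO HDM 2, the numbers over all genes were 525, 678 and 700. With the 8 HDM arrays fitted alone, Cdc6 and Rrm1 passed, 2 of 42, and 192 genes were higher in all. The median difference over the members stayed between 0.31 and 0.56 when any 1 HDM array was left out.

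**Figure D3:**
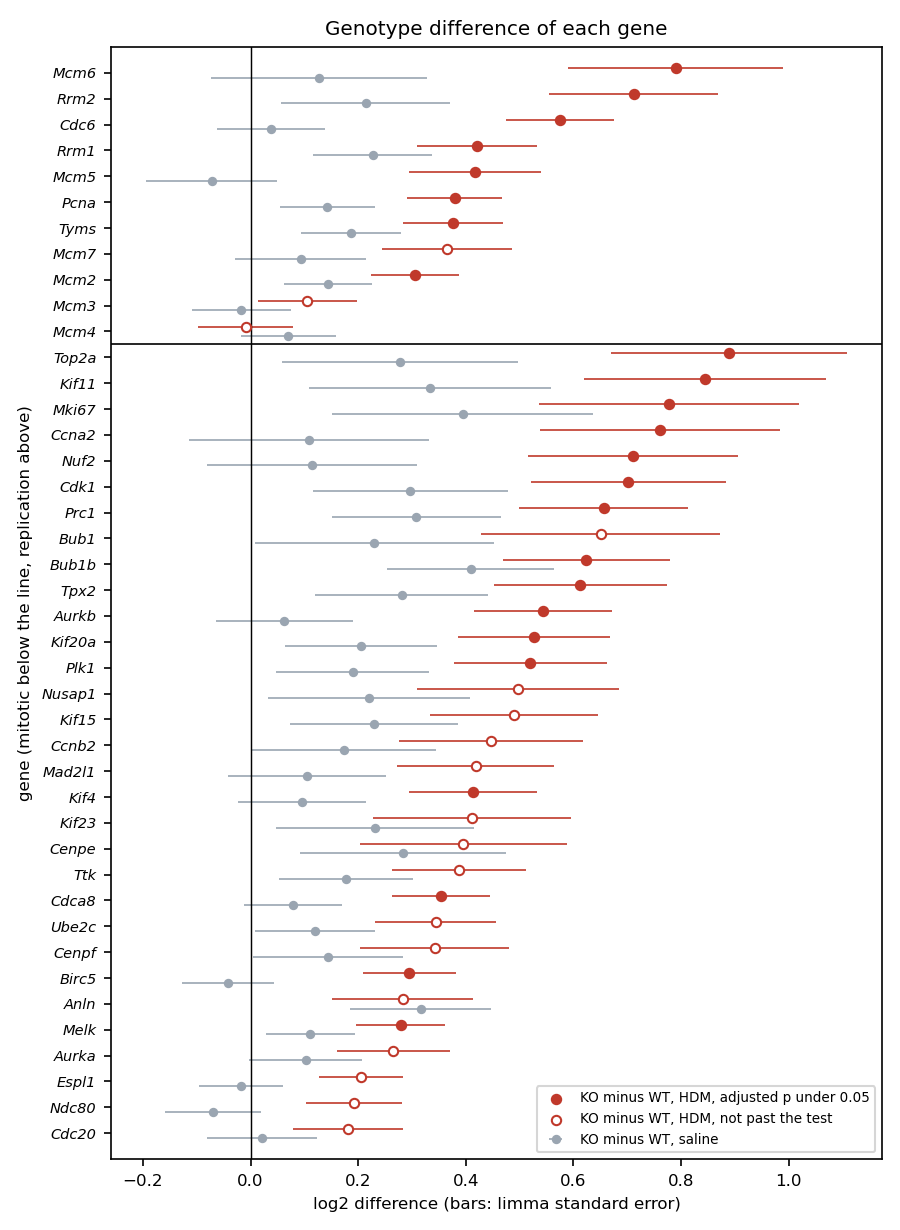
Difference between KO and WT (horizontal axis, log2) for each of the 42 genes (vertical axis; replication genes above the line) under HDM (red; filled where adjusted p was under 0.05) and under saline (grey), with limma standard errors as bars. Under HDM the differences run from -0.01 (Mcm4) to 0.89 (Top2a); under saline they run from -0.07 to 0.41 and none passed.

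Among genes for licensing origins, Cdc6, which loads the Mcm helicase, changed with the smallest p. Its level was 7.96, 8.01, 7.98 and 7.78 in WT HDM and 8.71, 8.65, 8.54 and 8.14 in KO HDM, with 8.28, 8.11, 8.15 and 8.10 in WT saline and 8.13, 8.06, 8.30 and 8.30 in KO saline. The HDM groups did not overlap, and Cdc6 was higher in KO by 0.58 (SE 0.10, adjusted p = 0.00274), a 1.49-fold difference. The helicase subunit Mcm6 was at 9.67, 8.71, 9.61 and 9.41 in WT HDM and 10.28, 10.27, 10.30 and 9.71 in KO HDM, against 9.53, 9.75, 9.21 and 9.69 and 9.37, 9.53, 10.14 and 9.65 in the saline groups of WT and KO. KO HDM 1 to 3 lay close together and KO HDM 4 just above the highest WT HDM array, and the difference was 0.79 (SE 0.20, adjusted p = 0.0178).

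The other helicase subunits split. Mcm5 was at 9.87, 9.57, 9.91 and 9.81 in WT HDM and 10.56, 10.06, 10.35 and 9.87 in KO HDM, and at 10.15, 10.08, 10.04 and 10.04 in WT saline and 10.05, 9.74, 10.16 and 10.08 in KO saline. It was higher in KO under HDM by 0.42 (SE 0.12, adjusted p = 0.0346), although KO HDM 4 lay below 2 of the WT HDM arrays. Mcm2 read 9.26, 9.15, 9.36 and 9.30 in WT HDM and 9.79, 9.49, 9.70 and 9.32 in KO HDM, and 9.42, 9.44, 9.37 and 9.36 and 9.52, 9.44, 9.62 and 9.59 in saline, and was higher by 0.31 (SE 0.08, adjusted p = 0.0243). Mcm7 (0.37, adjusted p = 0.0583), Mcm3 (0.11, adjusted p = 0.509) and Mcm4 (-0.01, adjusted p = 0.964) did not pass, although all belong to the same hexamer. Mcm4 was 9.37, 9.58, 9.58 and 9.64 in WT HDM and 9.50, 9.56, 9.64 and 9.43 in KO HDM, so its groups overlapped fully.

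Of the enzymes that supply deoxynucleotides, the small subunit of ribonucleotide reductase, Rrm2, had the widest difference. It was at 8.98, 8.83, 9.18 and 9.03 in WT HDM and 10.07, 9.55, 10.05 and 9.18 in KO HDM, and 9.22, 9.35, 9.14 and 9.27 and 9.53, 9.12, 9.61 and 9.60 in saline. KO HDM 4 barely exceeded the highest WT HDM array, and the difference was 0.71 (SE 0.16, adjusted p = 0.00954). The large subunit, Rrm1, was at 10.04, 10.21, 10.23 and 10.32 and 10.79, 10.67, 10.65 and 10.37 under HDM and 10.50, 10.42, 10.17 and 10.53 and 10.44, 10.42, 10.80 and 10.86 under saline, again with no overlap under HDM and a difference of 0.42 (SE 0.11, adjusted p = 0.0221). Thymidylate synthase, Tyms, was at 9.48, 9.32, 9.54 and 9.48 in WT HDM and 9.91, 9.95, 9.94 and 9.52 in KO HDM, with KO HDM 4 inside the WT range, and differed by 0.38 (SE 0.09, adjusted p = 0.0164). Its saline levels were 9.31, 9.27, 9.27 and 9.35 in WT and 9.33, 9.35, 9.61 and 9.65 in KO. Pcna, the sliding clamp of the replication fork, was at 11.66, 11.63, 11.61 and 11.61 in WT HDM, 12.14, 12.17, 12.06 and 11.66 in KO HDM, 11.87, 11.94, 11.82 and 11.76 in WT saline and 11.93, 11.87, 12.14 and 12.02 in KO saline. The WT HDM arrays lay close together below all others, and the difference from KO HDM was 0.38 (SE 0.09, adjusted p = 0.0134).

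Among the mitotic genes, Top2a, the topoisomerase that untangles sister chromatids, had the largest difference. It was at 8.79, 8.34, 9.20 and 8.998 in WT HDM and 10.28, 9.70, 9.79 and 9.10 in KO HDM, and at 9.29, 9.28, 8.91 and 8.92 and 9.31, 8.94, 9.74 and 9.53 in the saline groups. KO HDM 4 fell within the WT range, and the other 3 lay above it, for a difference of 0.89 (SE 0.22, adjusted p = 0.0162), or 1.85-fold. Top2a has 2 probe sets of its own, and with their mean in place of the brighter one the difference was 0.34 (SE 0.14, adjusted p = 0.129). Mki67, the proliferation marker that coats mitotic chromosomes, was at 9.78, 9.35, 10.36 and 10.13 in WT HDM and 11.24, 10.53, 10.79 and 10.16 in KO HDM, with 10.17, 10.18, 9.55 and 9.69 and 10.09, 9.85, 10.75 and 10.48 in saline. Its groups overlapped at KO HDM 4, and it was higher by 0.78 (SE 0.24, adjusted p = 0.046), the largest adjusted p among the 24.

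The cyclin-dependent kinase that drives mitosis, Cdk1, was at 9.05, 8.93, 9.45 and 9.34 in WT HDM and 10.36, 9.69, 10.03 and 9.50 in KO HDM, and at 9.61, 9.51, 9.28 and 9.39 and 9.68, 9.25, 10.09 and 9.96 in saline. The HDM groups did not overlap, and the difference was 0.70 (SE 0.18, adjusted p = 0.0195). Ccna2, its cyclin A2 partner, was at 9.19, 8.96, 9.59 and 9.51 in WT HDM, 10.67, 9.88, 10.25 and 9.49 in KO HDM, 10.18, 10.16, 9.88 and 9.65 in WT saline and 10.02, 9.56, 10.46 and 10.27 in KO saline. All WT HDM arrays lay below all WT saline arrays, and the KO HDM group was higher than WT HDM by 0.76 (SE 0.22, adjusted p = 0.0353). Cyclin B2, Ccnb2, differed by 0.45 (adjusted p = 0.101) and did not pass. Plk1, the polo-like kinase of mitotic entry, was at 8.79, 8.54, 8.91 and 8.85 in WT HDM and 9.77, 9.07, 9.38 and 8.95 in KO HDM, with 8.93, 9.01, 8.78 and 8.81 and 9.07, 8.79, 9.26 and 9.18 in saline, and was higher by 0.52 (SE 0.14, adjusted p = 0.0254) with no overlap. Melk, a kinase whose RNA peaks in mitosis, was at 7.82, 7.69, 7.84 and 7.87 in WT HDM and 8.25, 8.09, 8.20 and 7.80 in KO HDM, with 7.996, 8.04, 7.99 and 7.95 and 8.12, 7.98, 8.09 and 8.24 in saline, and was higher by 0.28 (SE 0.08, adjusted p = 0.0367). KO HDM 4 alone of its group lay within the WT HDM range.

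The chromosomal passenger complex corrects faulty attachments to the spindle, and all 3 of its listed members passed. Its kinase, Aurkb, was at 9.49, 9.18, 9.64 and 9.64 in WT HDM and 10.43, 9.90, 10.06 and 9.73 in KO HDM, and 9.61, 9.74, 9.53 and 9.63 and 9.76, 9.45, 9.78 and 9.78 in saline, with no overlap under HDM and a difference of 0.54 (SE 0.13, adjusted p = 0.0133). Birc5 (survivin) was at 8.48, 8.25, 8.39 and 8.43 and 8.96, 8.72, 8.64 and 8.42 under HDM and 8.66, 8.61, 8.52 and 8.57 and 8.60, 8.53, 8.58 and 8.48 under saline, a difference under HDM of 0.30 (SE 0.09, adjusted p = 0.0344). Cdca8 (borealin) was at 7.88, 7.96, 8.25 and 8.10 in WT HDM and 8.66, 8.41, 8.36 and 8.17 in KO HDM, with 8.24, 8.23, 8.18 and 8.34 and 8.25, 8.31, 8.42 and 8.32 in saline, and was higher by 0.35 (SE 0.09, adjusted p = 0.0193). In Birc5 and Cdca8 the KO HDM 4 array lay inside the WT HDM range. Aurka, the kinase of the spindle poles, differed by 0.27 (adjusted p = 0.112), while its activator Tpx2 passed with 0.61 (SE 0.16, adjusted p = 0.0215). Tpx2 was at 8.24, 7.995, 8.64 and 8.44 in WT HDM, 9.39, 8.92, 8.93 and 8.52 in KO HDM, 8.57, 8.75, 8.57 and 8.57 in WT saline and 8.71, 8.63, 9.11 and 9.14 in KO saline.

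The spindle motors and the proteins of the midzone gave mixed results. Kif11, the motor that pushes spindle poles apart, was at 8.95, 8.77, 9.38 and 9.22 in WT HDM and 10.53, 9.82, 10.03 and 9.31 in KO HDM, with 9.57, 9.47, 9.08 and 9.07 and 9.50, 9.12, 10.03 and 9.87 in saline. KO HDM 4 lay below 1 WT HDM array, and the difference was 0.84 (SE 0.23, adjusted p = 0.0228). Kif4, a motor on chromosome arms, was at 7.07, 6.89, 7.24 and 7.22 and 7.85, 7.42, 7.56 and 7.25 under HDM and 7.41, 7.38, 7.24 and 7.40 and 7.48, 7.13, 7.58 and 7.61 under saline, among the dimmest members, and was higher by 0.41 (SE 0.12, adjusted p = 0.0331). Kif20a, a motor of cytokinesis, was at 8.12, 7.92, 8.43 and 8.44 in WT HDM and 9.07, 8.67, 8.80 and 8.47 in KO HDM, with 8.71, 8.55, 8.34 and 8.42 and 8.59, 8.43, 8.94 and 8.88 in saline, and was higher by 0.53 (SE 0.14, adjusted p = 0.0233). Neither Kif4 nor Kif20a overlapped between the HDM groups. Prc1, which bundles midzone microtubules, was at 8.22, 8.08, 8.58 and 8.23 in WT HDM, 9.38, 8.87, 9.01 and 8.47 in KO HDM, 8.71, 8.57, 8.48 and 8.34 in WT saline and 8.78, 8.56, 9.11 and 8.88 in KO saline, a difference under HDM of 0.66 (SE 0.16, adjusted p = 0.0145). Its partner Kif23 (0.41, adjusted p = 0.16), the motor Kif15 (0.49, adjusted p = 0.0509), the spindle protein Nusap1 (0.50, adjusted p = 0.0957) and the cleavage furrow scaffold Anln (0.28, adjusted p = 0.177) did not pass.

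Of the members that act at the kinetochore or in its checkpoint, Bub1b and Nuf2 passed. Bub1b, a checkpoint kinase-like protein, was at 8.68, 8.12, 8.81 and 8.79 in WT HDM and 9.60, 9.15, 9.32 and 8.82 in KO HDM, and 8.61, 8.63, 8.60 and 8.50 and 8.91, 8.75, 9.21 and 9.12 in saline. It did not overlap between genotypes in either treatment and differed by 0.62 (SE 0.16, adjusted p = 0.0167) under HDM. Nuf2, which holds microtubules at the kinetochore, was at 8.06, 7.75, 8.31 and 8.18 in WT HDM and 9.43, 8.57, 8.92 and 8.23 in KO HDM, with 8.53, 8.60, 8.28 and 8.30 and 8.40, 8.25, 8.85 and 8.67 in saline, and was higher by 0.71 (SE 0.20, adjusted p = 0.0261). Its partner in the same complex, Ndc80, differed by 0.19 (adjusted p = 0.173). The checkpoint genes Bub1 (0.65), Mad2l1 (0.42) and Ttk (0.39) had adjusted p of 0.0654, 0.0711 and 0.0525, and the kinetochore genes Cenpe (0.40) and Cenpf (0.34) had 0.2 and 0.121. Of the genes of mitotic exit, Ube2c (0.34), Espl1 (0.21) and Cdc20 (0.18), which act with the anaphase-promoting complex or cut cohesin, had adjusted p of 0.0543, 0.0945 and 0.274.

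Without allergen, no member was called between the genotypes. Of the 42 members 0 passed in limma, against 0.231% of all genes, 2 were higher at an unadjusted p under 0.05 (Bub1b and Anln) against 3.61% of all genes, and the median difference was 0.14 against -0.01 over all genes. Members above 0 numbered 37 of 42. Bub1b had the largest difference, 0.41 (SE 0.16, adjusted p = 0.445), and Anln followed the same sign with 0.32 (SE 0.13, adjusted p = 0.54). Mcm2 and Bub1b did not overlap between the genotypes, 2 of 42 members, against 3.16% of all genes higher in this way. KO saline 3 and 4 were the high arrays of their group, with mitotic scores of 0.32 and 0.21, and KO saline 2 was the low one, at -0.19. The median difference was 0.23 without KO saline 2 and 0.11 without KO saline 3.

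In WT lungs, the comparison of HDM with saline asks how the genes answered the allergen. None of the 42 passed in limma (0 higher and 0 lower), whereas 17.6% of all genes did. At an unadjusted p under 0.05, 9 members were lower, against 22.2% of all genes. The median change was -0.18 against -0.05 over all genes, and 35 of 42 were below 0. In 8 members all WT HDM arrays lay below all WT saline arrays (Mcm2, Mcm5, Pcna, Cdc6, Ccna2, Birc5, Cdc20 and Melk), against 14.4% of all genes. The largest change was that of Ccna2, -0.66 (SE 0.22, adjusted p = 0.0502). Next to it, Nuf2 had -0.35 (adjusted p = 0.2), Tpx2 -0.29 (adjusted p = 0.208) and Mcm5 -0.29 (adjusted p = 0.106), while Tyms (0.16), Mcm4 (0.14), Cenpe (0.13) and Mad2l1 (0.11) had values above 0. Without WT saline 4 or WT HDM 3, 1 member passed. Over all genes, 1245 were higher and 1494 lower without WT saline 4, and 1441 and 1766 without WT HDM 3. Fitted on the 8 WT arrays alone, 5 members passed and were lower (Ccna2, Cdc6, Mcm5, Melk and Pcna). Over all 19938 genes, 1332 were higher and 1455 lower in that fit. Ccna2 then had an adjusted p of 0.0211.

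In KO lungs, HDM changed 1 member. Tyms rose, by 0.35 (SE 0.09, adjusted p = 0.027), and was 1 of 42 to pass, against 8.84% of all genes. Its KO saline values of 9.33, 9.35, 9.61 and 9.65 overlapped KO HDM at array 4. A further 4 members (Mcm6, Cdc6, Aurkb and Mad2l1) had an unadjusted p under 0.05, with changes of 0.47, 0.31, 0.34 and 0.42, against 10.8% of all genes higher at that p. The median change was 0.13 against -0.03 over all genes, and 36 of 42 were above 0. The 6 members below 0 were Anln (-0.12), Cdc20 (-0.07), Aurka (-0.04), Melk (-0.02), Rrm1 (-0.01) and Ccna2 (-0.004), and none of them passed. The count of members that passed was 5 without KO HDM 4 (Tyms, Cdc6, Mad2l1, Aurkb and Rrm2). Over all genes, 1458 were higher and 1215 lower without that array, against 989 and 774 with all arrays. No member passed without any 1 of KO HDM 1, 2 and 3 or KO saline 1 and 2, or on the 8 KO arrays alone.

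**Figure D4:**
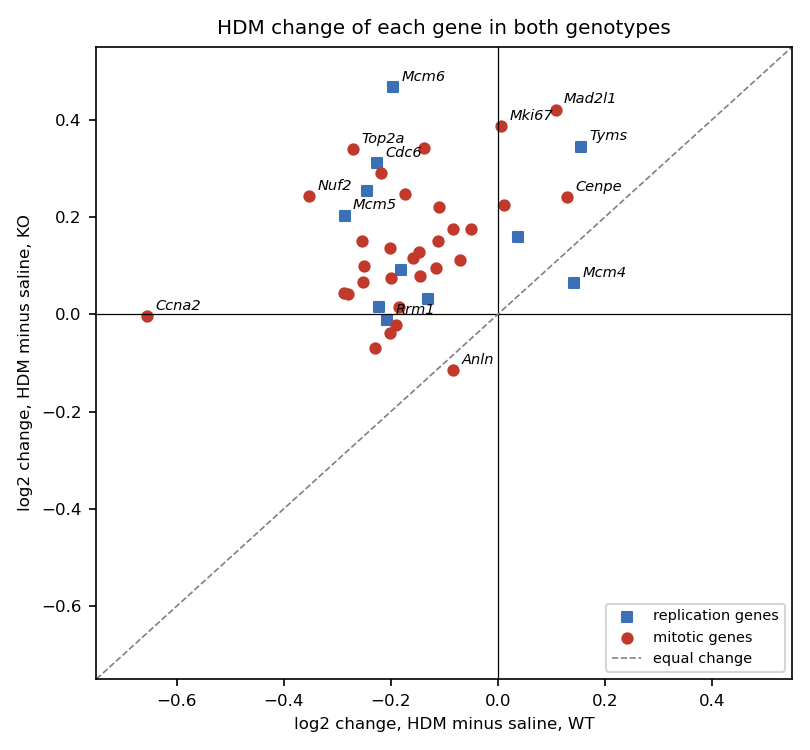
Change of each gene with HDM in KO lungs (vertical axis) against that in WT lungs (horizontal axis), both as log2 HDM minus saline; squares are replication genes, circles mitotic genes, and the dashed line marks equal change. All but Mcm4 and Anln lie above the dashed line, 40 of 42, and most lie left of 0 on the WT axis and above 0 on the KO axis.

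The difference between those changes was tested as an interaction. It was above 0 for 40 of 42 members, with a median of 0.27 against 0.03 over all genes, but 0 passed in limma, against 0.802% of all genes. At an unadjusted p under 0.05 there were 8 members (Cdc6, Mcm5, Mcm6, Rrm2, Birc5, Aurkb, Nuf2 and Cdca8), all above 0, against 7.93% of all genes above 0 at that p. The smallest p belonged to Cdc6, 0.54 (SE 0.14, adjusted p = 0.0814). Without KO HDM 4, 5 members passed: Cdc6 (0.66, adjusted p = 0.00344), Rrm2 (0.68), Mcm5 (0.60), Birc5 (0.43) and Pcna (0.35), 4 of them replication genes. Over all genes 512 were above 0 and 507 below 0 without that array, against 71 and 89 with it. With array weights, a fit that also keeps all 16 arrays, Cdc6 passed (0.65, adjusted p = 0.0122) and the other 41 members did not. That fit also called more of all genes, 339 above 0 and 341 below 0.

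Averaged over both treatments, KO lungs had 14 of 42 members higher (6 replication, 8 mitotic) and none lower, against 5.85% of all genes called, 2.84% higher. All 42 averages were above 0, with a median of 0.31. Among the 14 that passed, the largest were Kif11 (0.59 (SE 0.16, adjusted p = 0.0379)), Top2a (0.58 (SE 0.16, adjusted p = 0.0353)) and Bub1b (0.52 (SE 0.11, adjusted p = 0.0122)). Without KO HDM 4 the count was 35, without KO saline 3 or KO HDM 3 it was 4, and without KO HDM 1 it was 5. Leaving out WT saline 3, WT saline 4, KO saline 4 or WT HDM 2 gave 6, 7, 6 and 7, and KO saline 1 or KO HDM 2 gave 9. Over all genes, 567 were higher with all arrays and 1358 without KO HDM 4. Without KO saline 3, KO HDM 3 or KO HDM 1, 263, 281 and 311 of all genes were higher. Without WT saline 3, WT saline 4, KO saline 4 or WT HDM 2, the numbers were 303, 359, 294 and 397. They were 368 and 333 without KO saline 1 or KO HDM 2. Averaged over both genotypes, HDM changed 1 member, Tyms (0.25 (SE 0.07, adjusted p = 0.0117)), against 25.1% of all genes. The median HDM change was -0.02, with 19 members above 0. The count of members that passed was 2 without KO saline 3, KO HDM 4 or WT HDM 2. It was 4 without KO HDM 1 (1 higher, 3 lower), where 2070 of all genes were higher and 2635 lower. Without KO saline 3, KO HDM 4 or WT HDM 2, 2140, 2314 and 2024 of all genes were higher and 3181, 2785 and 2483 lower.

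Genes of the same pathways outside the 42 were read from lists chosen with earlier results of these data known. Between KO and WT under HDM, 12 of 36 other replication genes were higher and 0 lower, led by Dtl, which marks Cdt1 for destruction (0.78), the checkpoint kinase Chek1 (0.77), the polymerase subunit Pole (0.58) and Brca1 (0.46). Of 43 other mitotic genes 26 were higher and 0 lower, led by the condensin subunit Ncapg (0.80), Shcbp1 (0.73), the midzone protein Racgap1 (0.67) and Ncapg2 (0.66). Their medians were 0.26 and 0.36, against 0.02 over all genes and 11.7% called. Under saline, 0 of either list passed in limma, with 0 of 36 replication genes and 2 of 43 mitotic genes higher and 1 lower at an unadjusted p under 0.05. Over all genes, 0.231% passed and 3.61% were higher at that p, so the mitotic count lies near the share of all genes.

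The factors that control the cycle changed in both directions. Of 20 regulators, E2f8 (0.59), Foxm1 (0.39), Myc (0.36) and E2f7 (0.22) were higher in KO under HDM, and Lin52, a subunit of the DREAM complex, was lower by -0.51 (SE 0.07, adjusted p = 0.000606). These 5 of 20 stand beside 11.7% of all genes called. E2f8 was at 8.62, 8.35, 8.64 and 8.58 in WT HDM and 9.64, 8.85, 9.31 and 8.75 in KO HDM, with no overlap. Foxm1, a factor of the G2 and M phases, was at 8.53, 8.497, 8.62 and 8.79 in WT HDM and 9.19, 8.90, 9.07 and 8.86 in KO HDM, also with no overlap. In WT lungs, HDM raised E2f5 (0.47), Lin52 (0.45), E2f1 (0.33) and Tfdp2 (0.33) among 6 regulators, and lowered Myc (-0.30), Mybl2, which encodes B-Myb (-0.27), and E2f2 (-0.21). In KO lungs HDM raised E2f3 (0.49) and E2f1 (0.25). The shares of all genes called were 17.6% in WT and 8.84% in KO.

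Of 10 G1 genes, mostly cyclins and kinases, 3 were higher in KO under HDM, beside 5.84% of all genes. They were the E cyclins Ccne2 (0.64) and Ccne1 (0.52), which drive entry into S phase, and the ubiquitin ligase subunit Skp2 (0.22). HDM raised Ccnd3 (0.27) and Cdk2 (0.21) in WT lungs, where 17.6% of all genes were called. In KO lungs, where 8.84% were, it raised Ccne1 (0.45) and the phosphatase Cdc25a (0.30). Of 16 inhibitors and checkpoint genes, 0 were higher in KO under HDM and 3 were lower: Cdkn1b (-0.41), Tob1 (-0.25) and Cdkn2c (-0.24). These 3 of 16 stand beside 11.7% of all genes called in either direction. Of the 16, 10 lay above 0 in that comparison, and the median over the list was 0.04. HDM raised 4 and lowered 3 in WT lungs, and raised 1 and lowered 1 in KO lungs, beside 17.6% and 8.84% of all genes called.

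Cdkn1b encodes p27, which holds cyclin-dependent kinases inactive in resting cells. It was at 11.32, 11.35, 11.39 and 11.52 in WT saline, 11.83, 11.89, 11.96 and 11.87 in WT HDM, 11.37, 11.46, 11.45 and 11.48 in KO saline, and 11.34, 11.39, 11.45 and 11.73 in KO HDM. The WT HDM arrays lay above all 12 others, and KO HDM 4 was the highest of those 12. HDM raised it in WT lungs by 0.49 (SE 0.07, adjusted p = 0.000523), and its interaction passed, -0.45 (SE 0.10, adjusted p = 0.0492). The interaction call was at the edge of the threshold. It was lost with arrays shifted to the same median (adjusted p = 0.0507) and without any 1 of 13 of the 16 arrays (adjusted p of 0.055 to 0.106). It held without WT saline 4, KO HDM 4 or WT HDM 1, and was lost without WT saline 2 and 3 together (adjusted p = 0.214). With the mean of the gene's own probe sets in place of the brightest, the interaction was -0.17 (adjusted p = 0.729), the HDM change in WT 0.23 (adjusted p = 0.256) and the difference between genotypes under HDM -0.26 (adjusted p = 0.266), so all 3 calls rest on the brightest probe set.

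Genes of the circadian clock moved on the same arrays. Of 14 clock and output genes, 7 were lower in KO under HDM and 1 higher, with a median of -0.34, and in WT lungs HDM raised 7 and lowered 1. Over all genes 11.7% were called between KO and WT under HDM and 17.6% for HDM in WT lungs. Dbp, an output of the clock whose RNA cycles over the day, lay between 10.60 and 11.15 in WT HDM, between 9.45 and 9.68 in WT saline, between 9.47 and 9.86 in KO saline, and at 9.51, 9.77, 9.73 and 10.19 in KO HDM. KO HDM 4 again lay closest to WT HDM. The labels do not state at what time of day lungs were taken. With the Dbp level of each array as a covariate, a fit added after these values were seen, 0 of 42 members and 1 of 19938 genes passed between KO and WT under HDM. The median member difference was then -0.14, with a median standard error of 0.31 in place of 0.14. Over 16 arrays the mitotic score and Dbp had r = -0.57 and rho = -0.29, with r = -0.30 without WT HDM 1 and 2. Genotype, treatment and the Dbp level overlap so far in these arrays that their parts in the result cannot be told apart.

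**Figure D5:**
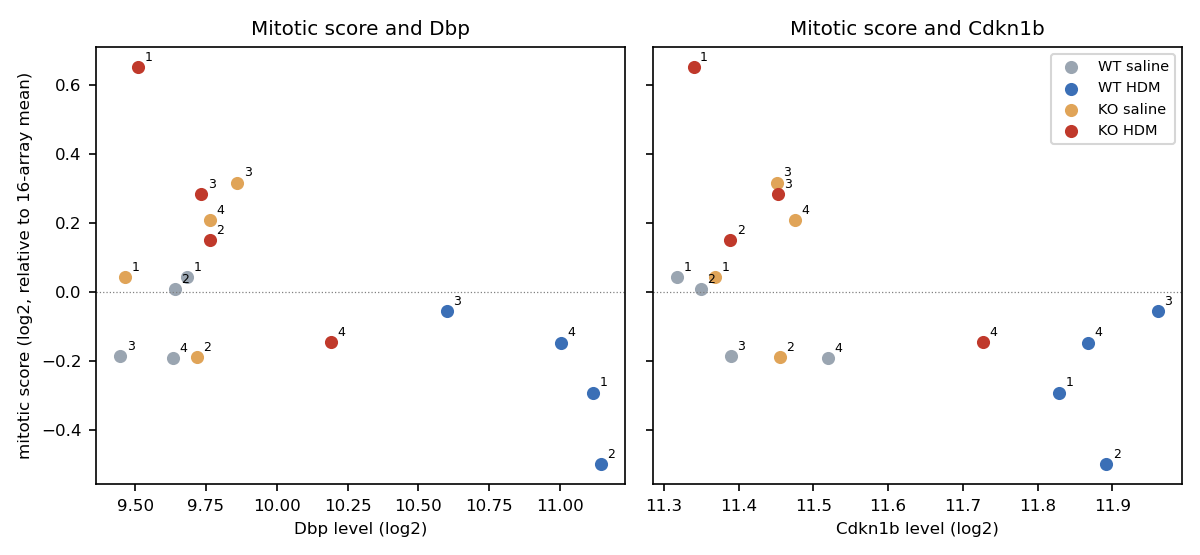
Mitotic score (vertical axis, log2 relative to the 16-array mean) against the level of Dbp (left) and Cdkn1b (right; horizontal axes, log2) on each of 16 arrays, numbered by replicate and coloured by group. WT HDM arrays stand to the right in both panels, with Dbp from 10.60 to 11.15, and KO HDM 4 lies between them and the other 11 arrays.

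Markers of other cells in the lung were read beside the result, in a comparison that called 11.7% of all genes and had 13.8% higher at an unadjusted p under 0.05. Between KO and WT under HDM, 0 of 7 B cell markers passed in limma although 4 were higher at an unadjusted p under 0.05, with a median of 0.40 and a mean level of 9.46 to 10.55 on WT HDM arrays and 10.31 to 11.02 on KO HDM arrays. Of 8 T cell markers 0 passed (1 at an unadjusted p under 0.05, median -0.03), and the same held for 10 germinal centre and plasma cell markers (2, median 0.03) and 7 thymocyte markers (1, median 0.04). Of 7 erythroid markers 1 was higher, the transferrin receptor Tfrc (0.51), with a median of -0.04. Of 10 immature myeloid markers 1 was lower, Kit (-0.39), and 0 were higher, with 6 of 10 above 0 and a median of 0.03. Among 8 markers of interstitial macrophages and monocytes 1 was higher, with a median of 0.28, and 2 of 9 alveolar macrophage markers were lower, with a median of -0.13. Alveolar type 2 and endothelial markers had 4 of 10 lower each, with medians of -0.25 and -0.19. Of 8 basal and squamous markers 0 passed, also at an unadjusted p under 0.05, and of 8 genes of multiciliating cells, which use mitotic genes without dividing, 1 was lower. The part of any of these cells in the difference of the 42 genes was not tested.

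Outside the 42, the genes most like the mitotic score over the 16 arrays were sought among 18264 named genes. The 10 highest Pearson r ran from 0.96 to 0.98 and belonged to Neil3, Ncapg, Sgo1, Kif22, Esco2, Ckap2, Stil, Hmmr, Cep55 and Shcbp1. Of these 10, 7 stood on the list of other mitotic genes. The likeness rests on arrays that share the 4 groups and is given as a description.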

How the data were processed

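RNA of 16 lung samples was measured on 16 arrays. Per the submitters' processing notes, the authors used Affymetrix Expression Console and RMA, with versions not given in the sources used here, and the deposited values were read as log2. The check of the values bears this out: they ran from 3.05 to 14.66. The table had 35556 probe sets: 21789 with 1 symbol, 1621 with several and 12146 unnamed, the last 2 kinds not used. Each of 19938 genes took its brightest probe set (999 had several), and 21698 probe sets matched the gene table by gene ID. No value column was left unused (0), and no depth applies to arrays, where their number limits precision.

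Group means of all 16 arrays were fitted with limma 3.58.1 (lmFit, eBayes) in R 4.3.3, two-sided, with Benjamini-Hochberg adjustment over all genes and a threshold of 0.05. The script was tested on simulated data. The members and the lists were chosen with earlier results of these data known. Every member could be named. Other lists were named by up to 4 genes that passed with the largest change, filled to 2 by smallest p, and Cdkn1b, Dbp and single markers also because their values were seen. Alternatives covered normalization, dim genes, variance model, array weights, probe sets, arrays left out, the fit of 2 groups alone and the replicate number as a block. Same-numbered samples did not deviate together (r of -0.28 to 0.33 over 24 pairs, median 0.04, 7 over 0.1), so numbers were not taken as pairs.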

Additional observations from a re-analysis of the deposited data

Results flagged for a closer look

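Levels of the members, Vldlr, Cdkn1b and Dbp, and the scores, were examined for a single array far from the other 3 of its group. Dixon's test on the gap over the range was used. Of 192 groups examined 8 held such an array, and chance marks about 1 in 20 groups, so the count is not above that share. Mcm6 was 9.71 on KO HDM 4 against 10.27 to 10.30 on the other KO HDM arrays. Tyms was 9.52 on the same array against 9.91 to 9.95. Anln was 9.20 on KO HDM 1 against 8.57 to 8.64. The replication minus mitotic score was -0.26 on KO HDM 1 against 0.04 to 0.07. In KO saline, array 2 was low for Rrm2 (9.12 against 9.53 to 9.61) and for Aurkb (9.45 against 9.76 to 9.78). In WT saline, Kif4 was low on array 3 (7.24 against 7.38 to 7.41) and Tpx2 high on array 2 (8.75 against 8.57).

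The change with HDM differed between genotypes for Cdkn1b, by -0.45, and for Dbp, by -1.27, with interaction adjusted p of 0.0492 and 0.00744 in limma. HDM raised both in WT lungs, by 0.49 and 1.37. The interaction call for Cdkn1b was lost with arrays shifted to the same median (adjusted p = 0.0507), with the mean of its probe sets (-0.17, adjusted p = 0.729) and without any 1 of 13 arrays. It was also lost without WT saline 2 and 3 together (adjusted p = 0.214) and with Dbp as a covariate (-0.17). That covariate also removed the Cdkn1b calls for HDM in WT (adjusted p = 0.817) and between genotypes under HDM (adjusted p = 0.954). The interaction call for Dbp was kept with any 1 array left out and lost without WT saline 2 and 3 together (adjusted p = 0.065). Both genes were examined after their values were seen.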

How the results depend on the processing

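Between KO and WT under HDM, 24 of 42 members passed. The count was 15 of 19 with genes under the 50th percentile left out, where fewer members are tested, 2 with the 8 HDM arrays alone, 0 with Dbp as a covariate (added after seeing the data), and 3 to 36 with 1 array left out. It stayed within 1.5 times under the other scalings, models and filters. For KO against WT on average (14), it was 24 with array weights, 0 with Dbp, 1 without WT saline 2 and 3, and 4 to 35 with 1 array out. The HDM count in KO (1) was 2 with quantile normalization, 5 with array weights, 4 with Dbp, 0 on the 8 KO arrays and 0 to 5 with 1 array out. In WT (0) it was 1 with either filter on dim genes, 2 with array weights, 5 on the 8 WT arrays and 0 to 1 with 1 array out. On average (1) it was 3 with array weights, 0 with Dbp, 0 without WT saline 2 and 3, and 1 to 4. The interaction (0) gave 1 with array weights and 0 to 5 with 1 array out. Array weights also raised the count over all genes in each of these comparisons. For KO against WT on average, 1058 of all genes were higher with them and 192 without WT saline 2 and 3, against 567. Under HDM, 941 of 9969 genes were higher with the 50th percentile filter, against 1164 of 19938. For HDM in WT, that filter left 1400 higher and 889 lower. The 25th percentile filter left 1611 and 1544 of 14953. No alternative gave a call of a member under saline. Mcm4 under HDM (-0.01) ranged from -0.0663 to 0.0249 with 1 array out and was above 0 without any 1 of 5 arrays. Scores and promoter shares moved by less than 1 SD or their interval. Beyond what fewer genes or arrays explain by construction, the cause was not tested.

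The other cell cycle lists, 125 genes, gave 13 calls with quantile normalization for HDM in WT, in place of 20. With genes under the 50th percentile left out, which leaves 55 of the 125, they gave 14 in place of 49 for KO against WT under HDM and 9 in place of 25 on average. For the interaction they gave 2 in place of 1 with quantile normalization, 2 with the 25th and 2 with the 50th percentile filter. With arrays shifted to the same median the count stayed at 1, but Cdkn1b (adjusted p = 0.0507) was lost and a regulator gained.

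With the replicate number as a block, 29 members passed between KO and WT under HDM, 16 on average and 1 for HDM in WT. Over all genes, 1221 were higher between KO and WT under HDM and 621 on average, against 1164 and 567 without the block. For HDM in WT, 1628 were higher and 1915 lower, against 1568 and 1937. The replicate numbers share no stated link.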
